A study of Homo sapiens with 8 samples.

Results

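The genes described here are the cyclins, the cyclin-dependent kinases (CDKs) and their inhibitors, the CDC genes and the E2F transcription factors, 74 genes of the 14884 with a single symbol on the array. They were chosen by the pattern of their symbols alone (CCN and a letter, CDK and a number, CDKN1 to CDKN3, CDC and a number, and E2F1 to E2F8), without CDC42, CDKN2AIP and antisense symbols. The 74 genes were read by 77 probe sets, and a gene with several was represented by its brightest one on average. One of them, CDKN2AIPNL, met the pattern without being a CDK inhibitor, and lay at a difference of -0.06 that did not pass the test. Values are log2 expression values made by RMA, which corrects background and puts arrays on a common scale. They compare 1 gene between clones and do not rank genes by amount.

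All RNA came from the PC-3 line, established from a human prostate cancer and able to grow without androgen, and each of 8 arrays held 1 clonal isolate selected with an antibiotic after lentiviral transfer. The RWDD4 group comprised the 4 isolates with a p-Lenti vector carrying the RWDD4 gene (clones 17, 24, 5 and 6). The control group comprised the 4 isolates with the empty p-Lenti vector (clones 2, 3, 4 and 5). Both groups thus carried a vector and had passed selection and cloning, so a difference between isolates of 1 group includes clonal variation. RWDD4 itself had 10.30 ± 0.29 in the RWDD4 clones and 7.36 ± 0.58 in the control clones (SD, n = 4 each), with no overlap. Of 5 epithelial markers kept by PC-3, KRT8, KRT18, KRT19 and EPCAM were measured; 3 were lower and none higher (limma), and their summed log2 level was 33.6 to 34.1 in the RWDD4 clones, against 34.7 to 35.5 in the control clones. The mesenchymal markers VIM and CD44 were both higher, with a sum of 15.7 to 16.0 in the RWDD4 clones, against 13.8 to 14.8 in the control clones, and the part of these shifts in the results was not tested. Of the genes lost or silent in PC-3, KLK3 alone was read, at 5.55 to 5.89 in the RWDD4 clones, against 5.49 to 6.10 in the control clones. Of markers of other cell types, CD14 and CD68 of blood cells, VWF and PECAM1 of endothelium and THY1 and DCN of fibroblasts were measured, and all but PECAM1 and DCN were lower (limma). The summed level of the blood markers was 14.1 to 14.7 in the RWDD4 clones, against 14.6 to 15.4 in the control clones. That of the endothelial markers was 9.80 to 10.2 in the RWDD4 clones, against 10.1 to 10.8 in the control clones, and that of the fibroblast markers 8.71 to 8.84 in the RWDD4 clones, against 8.87 to 9.59 in the control clones. CD68 (10.21 in the RWDD4 clones, 10.60 in the control clones) and THY1 (6.07 in the RWDD4 clones, 6.43 in the control clones) lay above the median of all probe sets, 4.92, and DCN (2.70 in the RWDD4 clones, 2.81 in the control clones) below it. Whether these markers bear on the results was not tested.

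Cyclins are the regulatory subunits of CDKs, and their rise and destruction drive the cell cycle. D-type cyclins with CDK4 and CDK6 start the phosphorylation of the RB1 protein, which releases E2F factors to switch on genes of DNA synthesis. Cyclins E and A with CDK2 carry cells through S phase, and cyclins A and B with CDK1 bring them into mitosis. The anaphase-promoting complex (APC/C) then marks the mitotic cyclins for destruction. A separate branch of the family, with cyclins C, H, K, L and T, works on RNA polymerase II and splicing and does not oscillate with the cycle. In a bulk culture, a larger share of cells in one phase and more RNA per cell cannot be told apart.

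In the RWDD4 clones 37 of the 74 genes were higher than in the control clones, and 9 were lower. A gene counts as higher or lower when its Benjamini-Hochberg adjusted p, from limma over all 14884 genes, was under 0.05. This made 50% of the members higher, against a background of 25.1% of all genes, and 12.2% lower, against 21.6% of all genes. In either direction 62.2% of the members passed, against 46.7% of all genes. The median difference, RWDD4 minus control, was 0.36 on the log2 scale over the members and -0.08 over all genes. At least 2-fold higher were 22 members, or 29.7%, against 9.74% of all genes, and at least 2-fold lower was 1 member, CDC34, against 0.417% of all genes. Dim genes passed less often, and 71 members lay at or above the median of all probe sets. Of these 52.1% were higher and 12.7% lower, against 33.1% and 26.6% of all genes at that level. At least 2-fold higher were 31% of them, against 13.4% of all genes at that level. The 4 values of the RWDD4 clones lay above the 4 of the control clones in 34 members (45.9%), against 23.7% of all genes, and below them in 10 (13.5%), against 21.1%. Under quantile normalization 36 members were higher and 16 lower, and under cyclic loess 40 were higher and 9 lower. The split over all genes was 23% higher and 24.8% lower under quantile normalization, and 26.7% higher and 14.8% lower under cyclic loess.

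The calls rest on the fit without a covariate. When the score of each array on the main component of variation within groups was added as a covariate, 0 of the 74 genes passed (limma). Over all 14884 genes 0 were higher and 1 was lower with that covariate, so the loss was not particular to the members. Of the members 16 had an unadjusted p under 0.05 (limma), and the median of the 37 higher genes was 0.47 in place of 1.08. The groups do not overlap in that score, which ran from 19.70 to 35.90 in the RWDD4 clones, against -58.36 to -12.21 in the control clones, so the covariate also carries the group difference.

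**Figure D1:**
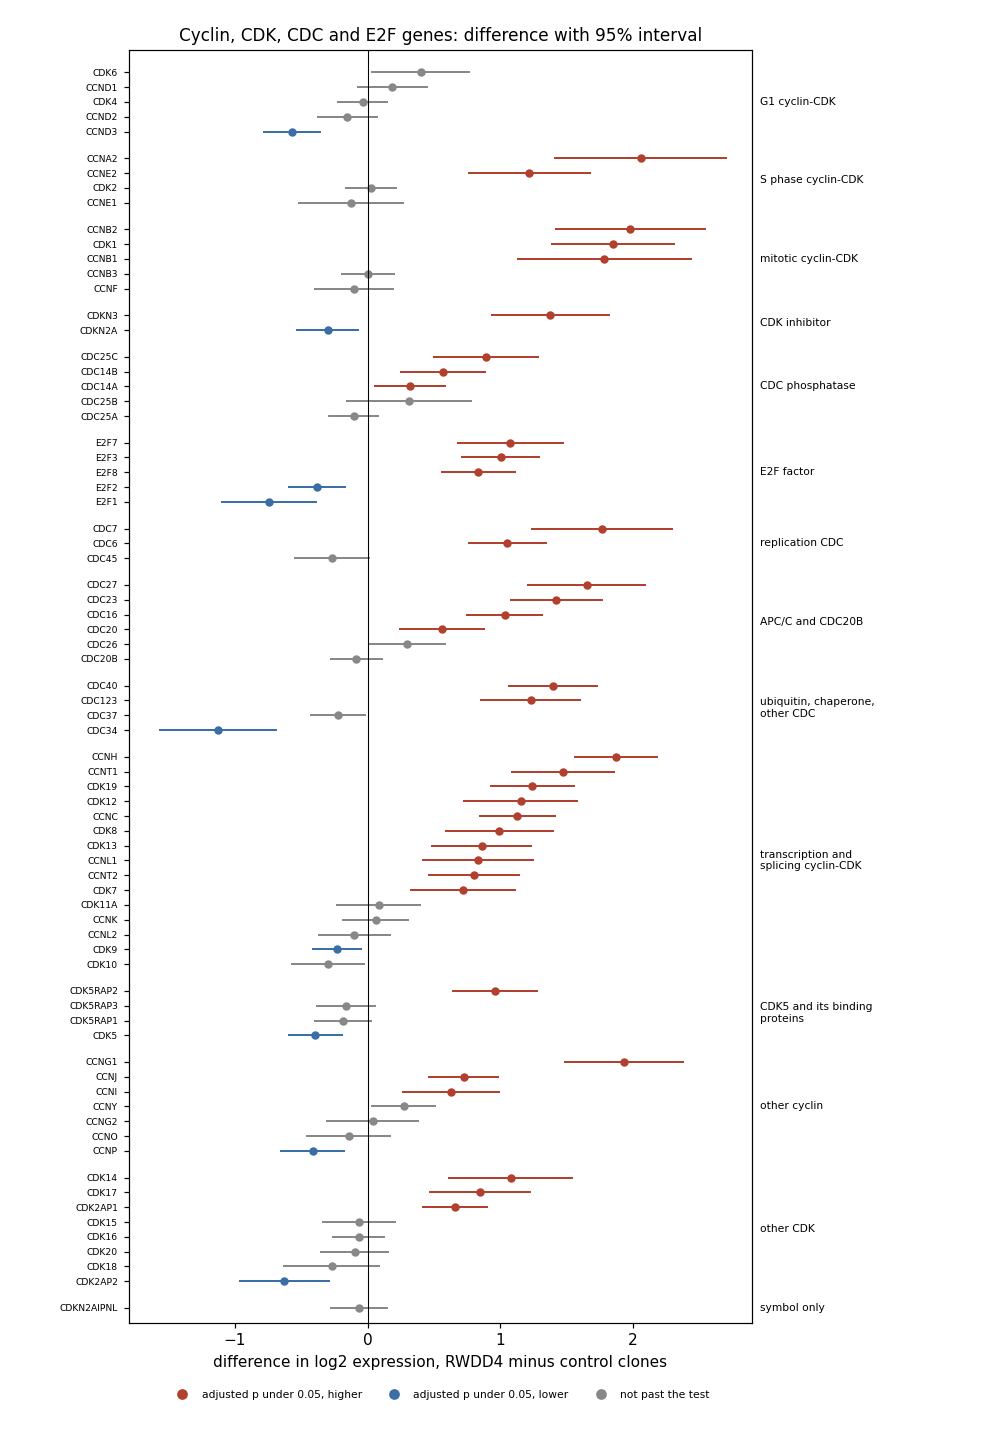
Difference in log2 expression, RWDD4 minus control clones (horizontal axis), of the 74 genes (vertical axis, grouped by role), with lines for the 95% interval from limma. Red points are the 37 genes higher, blue the 9 lower and grey the 28 not past the test. The intervals of CCNA2, CCNB1, CCNB2 and CDK1 lie above 1, as do those of CCNH, CCNG1, CDC7, CDC27, CCNT1, CDC23 and CDC40. CDC34 has the lowest value, -1.13.

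Cyclin A, the main B cyclins and CDK1 rose, while CCNF and CCNB3 did not pass. CCNA2, the cyclin A of somatic cells, lay at 10.45, 10.34, 10.80 and 10.93 in RWDD4 clones 17, 24, 5 and 6, against 7.77, 8.29, 8.84 and 9.39 in control clones 2, 3, 4 and 5. Every RWDD4 clone was above every control clone, and the control clones were spread over more than 1 log2 unit. It rose by 2.06 (SE 0.29), which is 4.17-fold (adjusted p 0.00032, limma), the largest rise of the 74 genes and rank 78 among all genes.

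CCNB2, a mitotic cyclin B, lay at 8.21, 8.11, 8.56 and 8.93 in the RWDD4 clones, against 6.29, 5.81, 6.80 and 6.996 in the control clones. CDK1, the kinase that these cyclins activate, lay at 9.66, 9.85, 10.01 and 9.61 in the RWDD4 clones, against 7.42, 7.68, 8.12 and 8.52 in the control clones. CCNB1, the other main B cyclin of dividing cells, lay at 9.01, 8.54, 9.25 and 9.12 in the RWDD4 clones, against 6.64, 6.65, 7.41 and 8.09 in the control clones. The groups stayed apart in all 3 genes, and the highest control value was that of clone 5 each time. The differences were 1.98 (SE 0.25) for CCNB2, 1.85 (SE 0.21) for CDK1 and 1.79 (SE 0.30) for CCNB1, with adjusted p of 0.000193, 0.000112 and 0.000796 (limma).

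CCNF, the cyclin of an SCF ubiquitin ligase that peaks in G2, averaged 8.78 ± 0.07 in the RWDD4 clones and 8.88 ± 0.28 in the control clones (SD, n = 4 each), with an interval of the difference from -0.40 to 0.19. The meiotic cyclin CCNB3 was dim, at 3.16 to 3.41 in the RWDD4 clones, against 3.22 to 3.37 in the control clones. The gap between CCNB1 and CCNF on the log2 scale was 1.89 wider in the RWDD4 clones than in the control clones. This gap is 1 of 6 between related genes given here, all chosen after their values were seen and given as descriptions with no test.

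**Figure D2:**
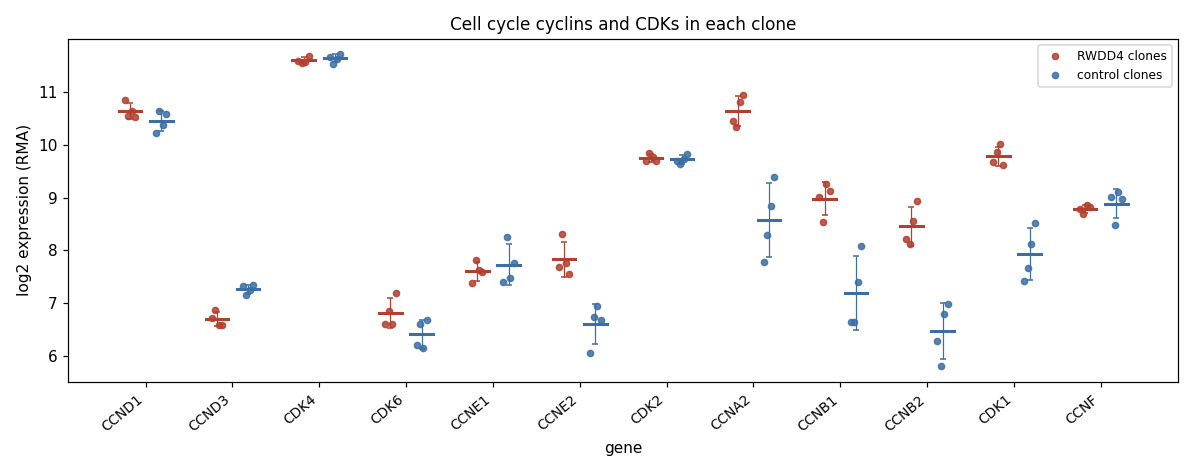
Log2 expression (vertical axis) of 12 cell cycle cyclins and CDKs in each clone; points are clones, bars the mean and lines the SD (n = 4 each), with RWDD4 clones in red left of control clones in blue. The groups are apart in CCNA2, CCNB1, CCNB2, CDK1, CCNE2 and CCND3, where the RWDD4 clones are the lower group only in CCND3, and overlap in the other 6 genes.

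In the S phase group CCNE2 rose and CCNE1, the other E cyclin that activates CDK2 at the start of DNA synthesis, did not pass. CCNE2 lay at 7.69, 8.32, 7.76 and 7.55 in the RWDD4 clones, against 6.06, 6.74, 6.95 and 6.69 in the control clones, a difference of 1.22 (SE 0.21, adjusted p 0.000909, limma). CCNE1 averaged 7.60 ± 0.18 in the RWDD4 clones and 7.73 ± 0.39 in the control clones (SD, n = 4 each), with an interval of the difference from -0.51 to 0.27. The log2 gap of CCNE2 over CCNE1 was 1.34 wider in the RWDD4 clones. Their kinase CDK2 lay at 9.68 to 9.84 in the RWDD4 clones, against 9.64 to 9.82 in the control clones, and its difference was 0.03 with an interval from -0.16 to 0.22. CDK2 did not pass here, but passed with the span trend removed.

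In the G1 group 1 of 5 genes fell (20%, against 21.6% of all genes) and the other 4 did not pass. CCND3, a D cyclin, lay at 6.73, 6.88, 6.60 and 6.60 in the RWDD4 clones, against 7.33, 7.16, 7.25 and 7.34 in the control clones, and fell by 0.57 (SE 0.10, adjusted p 0.000902, limma). CCND1, the D cyclin most often amplified in tumours, lay at 10.84, 10.53, 10.63 and 10.52 in the RWDD4 clones, against 10.21, 10.63, 10.37 and 10.57 in the control clones, and these values overlap. Its difference of 0.19 did not pass, and was 0.32 and past the test (adjusted p 0.0488, limma) with the span trend removed. The log2 gap of CCND1 over CCND3 was 0.75 wider in the RWDD4 clones. CDK4 had the interval -0.22 to 0.15 and CDK6 the interval 0.04 to 0.76, neither past the test after adjustment (0.745 and 0.068, limma). CDK6 passed after median centring, after cyclic loess and without control clone 5 (0.49), and CDK4 passed at 0.24, the opposite sign, with the trend over genomic span removed. CCND2 was read by 2 probe sets, at -0.15, not past the test, for the one that stands for the gene, and at -0.28 for the other, which passed as lower (adjusted p 0.0435, limma over the named probe sets).

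The inhibitors were covered thinly: of the CDKN1 and CDKN2 families CDKN2A alone was among the genes with a single symbol, beside CDKN3. CDKN3, a phosphatase that acts on CDK2, lay at 10.64, 10.38, 10.93 and 10.58 in the RWDD4 clones, against 8.94, 8.88, 9.38 and 9.82 in the control clones, a rise of 1.38 (SE 0.20, adjusted p 0.000368, limma). CDKN2A, whose p16 product blocks CDK4 and CDK6, lay at 6.45, 6.24, 6.22 and 6.45 in the RWDD4 clones, against 6.84, 6.52, 6.63 and 6.57 in the control clones. Its fall of 0.30 had an adjusted p of 0.0345 (limma), which became 0.0694 after median centring, 0.087 after cyclic loess and 0.0651 to 0.0974 without RWDD4 clone 24, RWDD4 clone 5, control clone 2 or control clone 4.

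Of the CDC25 phosphatases, which remove the inhibitory phosphates from CDKs, CDC25C rose. It lay at 8.34, 8.15, 8.46 and 8.46 in the RWDD4 clones, against 7.04, 7.31, 7.48 and 7.997 in the control clones, a difference of 0.89 (SE 0.18, adjusted p 0.00229, limma). CDC25A averaged 8.90 ± 0.09 in the RWDD4 clones and 9.01 ± 0.04 in the control clones (SD, n = 4 each), and CDC25B lay at 9.80 to 10.55 in the RWDD4 clones, against 9.55 to 10.37 in the control clones. Neither CDC25A nor CDC25B passed, though CDC25A did so as lower after quantile normalization, at -0.27. The log2 gap of CDC25C over CDC25A was 0.998 wider in the RWDD4 clones. CDC14B and CDC14A belong to a phosphatase family that opposes CDKs in yeast. CDC14B lay at 5.37, 5.18, 5.59 and 5.64 in the RWDD4 clones, against 5.24, 4.82, 4.70 and 4.75 in the control clones. CDC14A lay at 6.11, 6.42, 6.09 and 6.12 in the RWDD4 clones, against 5.66, 6.11, 5.79 and 5.90 in the control clones. Both passed, at 0.57 and 0.32 (adjusted p 0.0081 and 0.0473, limma), though the highest control clone of each overlapped the RWDD4 clones. With the span trend removed both missed the test, at 0.26 and 0.04, and CDC14A also missed it with 7 of the 8 clones left out in turn (0.24 to 0.35) and after quantile normalization. A second CDC14B probe set did not pass, at 3.20 in the RWDD4 clones and 3.14 in the control clones, below the median of all probe sets.

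The E2F factors moved in both directions, and all 5 measured members passed, against 46.7% of all genes. Higher were 60% of them, against 25.1% of all genes, and lower 40%, against 21.6%. E2F1, an activator released by RB1, lay at 9.31, 9.51, 9.15 and 9.01 in the RWDD4 clones, against 10.40, 9.86, 10.02 and 9.68 in the control clones. E2F2, also an activator, lay at 6.98, 6.98, 6.92 and 7.06 in the RWDD4 clones, against 7.52, 7.43, 7.34 and 7.18 in the control clones. Both genes were lower in the RWDD4 clones with no overlap, with falls of 0.74 (SE 0.16) for E2F1 and 0.38 (SE 0.10) for E2F2 (adjusted p 0.00348 and 0.00794, limma).

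E2F3, a further activator, lay at 7.93, 8.03, 7.95 and 8.31 in the RWDD4 clones, against 6.81, 7.30, 6.92 and 7.18 in the control clones. E2F7, an atypical repressor, lay at 8.39, 8.82, 8.70 and 8.83 in the RWDD4 clones, against 7.08, 7.60, 7.86 and 7.90 in the control clones. E2F8, its closest relative, lay at 8.73, 8.97, 8.85 and 8.94 in the RWDD4 clones, against 7.74, 7.97, 8.31 and 8.12 in the control clones. All 3 were higher in every RWDD4 clone, by 1.004 (SE 0.13), 1.08 (SE 0.18) and 0.83 (SE 0.12) for E2F3, E2F7 and E2F8, and their adjusted p lay between 0.000214 and 0.000817 (limma). The log2 gap of E2F3 over E2F1 was 1.75 wider in the RWDD4 clones. Under the covariate described above E2F1 lay at 0.11, of opposite sign and not past the test.

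**Figure D3:**
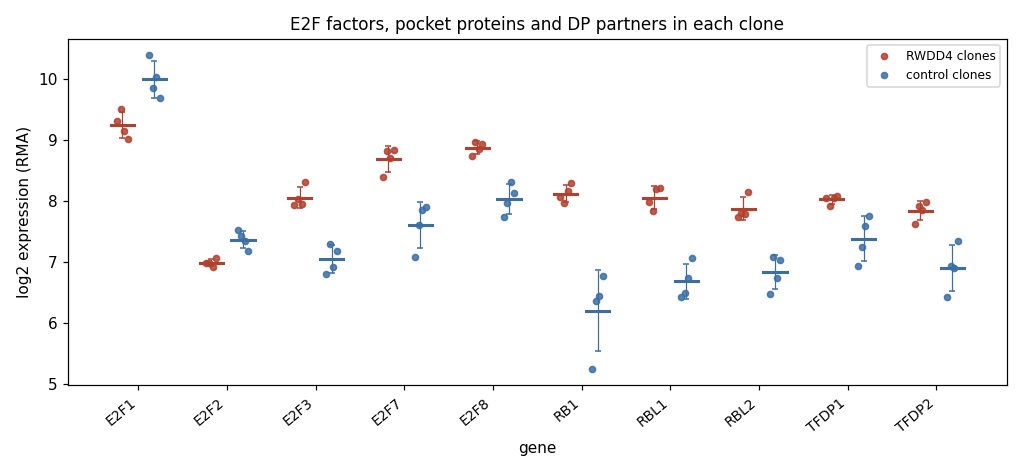
Log2 expression (vertical axis) of the 5 E2F genes, the 3 pocket protein genes and the DP partners TFDP1 and TFDP2 in each clone; points are clones, bars the mean and lines the SD (n = 4 each), with RWDD4 clones in red left of control clones in blue. In E2F1 and E2F2 the RWDD4 clones are the lower group and in the other 8 genes the higher one, and control clone 2 is the lowest point of RB1, at 5.24.

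A list outside the symbol patterns held the pocket proteins and DP partners of E2F and the MuvB core of the DREAM complex. The pocket proteins RBL1 and RBL2, but not RB1, join that complex, which holds cell cycle genes silent in resting cells. Also listed were MYB factors, FOXM1 and DYRK1A, which act with or on it. Of the 15 listed genes 14 were measured, 12 rose (85.7%, against 25.1% of all genes) and 1, LIN37, fell by 0.44 (list median 0.87). RB1 lay at 8.06, 7.96, 8.16 and 8.29 in the RWDD4 clones, against 5.24, 6.36, 6.44 and 6.78 in the control clones, a difference of 1.92 (SE 0.27, adjusted p 0.000292, limma). MYBL1, RBL1, which encodes the pocket protein p107, and the kinase DYRK1A rose by 1.60, 1.37 and 1.34. MYBL2, the B-MYB factor, lay at -0.23 and did not pass. Of 22 textbook E2F target genes 17 were measured, 8 rose (47.1%, against 25.1% of all genes) and 2, MCM2 and MCM5, fell (list median 0.31). RRM1, MCM6, RBL1 and the checkpoint kinase CHEK1 led the rises at 1.54, 1.39, 1.37 and 1.23, while the helicase subunits MCM3 and MCM4 did not pass, at 0.31 and 0.24. RBL1 and MYBL2 stand in both lists.

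To show what the promoters of the genes above hold, 3 kinds of short motif were searched on both strands from 250 bases before to 50 after the start of each gene (RefSeq, GRCh38.p14). These were the cell cycle homology region (CHR, TTTGAA or TTCGAA), to which DREAM binds, the E2F motif (TTTCCCGC, TTTCGCGC, TTTGCCGC or TTTGGCGC) and the CCAAT box of the factor NF-Y. The table held promoters of 69 of the 74 members and of 10749 of the genes tested. An E2F motif stood in 13 of the 69 (18.8%), against 4.49% of the genes tested and 3.33% of all 27305 promoters in the table. A CHR stood in 11 of the 69 (15.9%), against 13.2% of the genes tested and 16.6% of all promoters, and CCAAT in 31 (44.9%), against 36% and 35.7%.

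By direction, a CHR stood in 9 of 35 promoters of higher members, 1 of 9 of lower members and 1 of 25 of those not past the test. An E2F motif stood in 6 of 35, 2 of 9 and 5 of 25, and CCAAT in 19 of 35, 2 of 9 and 10 of 25. The split by direction was not made over all genes tested, so whether it is particular to the members was not tested. A match describes letters and is no proof of binding. Other forms of these motifs and bases outside the window were not searched, so a missing match does not exclude a site.

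Mitotic promoters are shown first, up to the base before the start, with CHR and CCAAT matches in capitals. CCNB2 (chr15:59104996-59105145, + strand), CDC20 (chr1:43358861-43358980, + strand) and CDK1 (chr10:60778161-60778330, + strand) rose, and CCNF (chr16:2429347-2429446, + strand), with a CHR too, did not pass. Counted from the start, the CHR shown begins at -29 in CCNB2, -65 in CDC20, -85 in CCNF and -161 in CDK1. CCNF and CDC20 hold a further CHR upstream of the stretch shown. The 4 CCAAT matches of CCNF all lie upstream of its shorter stretch, the nearest beginning at -106. A further CCAAT of CCNB2, at -244, is not shown either. The stretches searched for CCNA2 and CCNB1, which also rose, held CCAAT but neither TTTGAA nor TTCGAA.
CCNB2: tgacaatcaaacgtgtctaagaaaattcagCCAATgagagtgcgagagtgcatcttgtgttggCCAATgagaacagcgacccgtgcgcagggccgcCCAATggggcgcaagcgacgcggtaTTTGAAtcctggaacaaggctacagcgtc
CDC20: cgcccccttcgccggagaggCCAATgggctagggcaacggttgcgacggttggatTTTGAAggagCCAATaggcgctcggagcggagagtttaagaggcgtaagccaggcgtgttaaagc
CDK1: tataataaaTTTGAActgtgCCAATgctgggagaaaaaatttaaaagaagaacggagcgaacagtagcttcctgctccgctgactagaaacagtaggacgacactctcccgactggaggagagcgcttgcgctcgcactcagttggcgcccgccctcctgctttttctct
CCNF: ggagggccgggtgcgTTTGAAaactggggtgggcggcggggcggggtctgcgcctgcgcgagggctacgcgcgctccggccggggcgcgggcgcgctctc

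Stretches before 3 E2F genes and CDC25A are shown because an E2F motif, in different versions, stood before genes that fell, rose or did not pass. E2F1 (chr20:33686386-33686485, - strand) and E2F2 (chr1:23531234-23531333, - strand) fell, E2F3 (chr6:20401779-20401878, + strand) rose, and CDC25A (chr3:48188418-48188517, - strand) did not pass. Capitals mark E2F, CHR and CCAAT matches, with 2 E2F matches in E2F1 and 1 in each of the others, and a CHR in E2F3. The matches are TTTGGCGC in E2F1, E2F2 and CDC25A, TTTGCCGC also in E2F1, and TTTCCCGC in E2F3, read on the opposite strand for the last 2 words. The stretch searched for E2F7, which rose, held none of the E2F words listed above.
E2F1: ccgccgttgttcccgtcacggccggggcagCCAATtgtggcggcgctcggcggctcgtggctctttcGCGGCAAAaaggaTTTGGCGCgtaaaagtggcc
E2F2: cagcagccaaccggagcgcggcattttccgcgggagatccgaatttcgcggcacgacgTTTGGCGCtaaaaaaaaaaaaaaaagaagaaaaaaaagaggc
E2F3: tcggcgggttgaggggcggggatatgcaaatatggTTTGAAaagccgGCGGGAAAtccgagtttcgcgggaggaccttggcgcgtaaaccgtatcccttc
CDC25A: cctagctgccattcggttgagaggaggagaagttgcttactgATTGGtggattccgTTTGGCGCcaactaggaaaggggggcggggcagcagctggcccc

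The CDC genes of replication split. CDC7, the kinase that fires origins, lay at 7.32, 7.77, 7.88 and 7.82 in the RWDD4 clones, against 5.13, 6.21, 6.06 and 6.33 in the control clones, a rise of 1.77 (SE 0.24, adjusted p 0.000245, limma). CDC6, the loader of the MCM helicase, lay at 8.42, 8.33, 8.43 and 8.25 in the RWDD4 clones, against 6.92, 7.38, 7.34 and 7.59 in the control clones, a rise of 1.05 (SE 0.13, adjusted p 0.00017, limma). CDC45, a subunit of the active helicase, lay at 8.47 to 8.62 in the RWDD4 clones, against 8.61 to 9.16 in the control clones, with a difference of -0.27 that did not pass. It passed without control clone 2 (-0.34), with array weights (-0.33), after quantile normalization (-0.44) and with the span trend removed (-0.46).

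Of the 6 members grouped with the APC/C 4 rose and none fell (66.7% higher, against 25.1% of all genes), and none fell at an unadjusted p under 0.05 either (limma). CDC27 lay at 9.92, 9.58, 10.02 and 9.77 in the RWDD4 clones, against 7.54, 8.27, 8.25 and 8.62 in the control clones. CDC23 lay at 9.20, 9.03, 9.20 and 9.002 in the RWDD4 clones, against 7.20, 8.01, 7.73 and 7.80 in the control clones. CDC16 lay at 8.48, 8.08, 8.66 and 8.22 in the RWDD4 clones, against 7.36, 7.36, 7.38 and 7.21 in the control clones. No value overlapped between the groups, and the rises were 1.65 (SE 0.20), 1.42 (SE 0.15) and 1.03 (SE 0.13) for CDC27, CDC23 and CDC16 (adjusted p 9.75e-05 to 0.000156, limma). A second CDC27 probe set lay at 2.72 in the RWDD4 clones and 2.73 in the control clones, below the median of all probe sets.

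CDC20, the activator of the APC/C in mitosis, rose by 0.56 (SE 0.14, adjusted p 0.0093, limma), and its groups overlapped, at 10.88 to 11.32 in the RWDD4 clones, against 10.25 to 10.90 in the control clones. CDC26, a small subunit, lay at 0.30 with an interval from 0.01 to 0.58 and did not pass after adjustment. It passed at 0.51 with the span trend removed, after cyclic loess, and without RWDD4 clone 24 or control clone 3. CDC20B, a relative of CDC20 that is no subunit, lay at -0.08, and was dim in both groups (means 3.91 in the RWDD4 clones and 3.996 in the control clones). CDC20B passed as lower with the span trend removed, at -0.35. Of 13 other subunits and activators listed, 12 were measured, 6 rose (50%, against 25.1% of all genes) and 2, ANAPC2 and ANAPC11 of the catalytic core, fell, by 0.61 and 0.49 (list median 0.24). The rises were led by the scaffold subunit ANAPC1 at 1.92, ANAPC13 at 1.29, ANAPC4 at 0.92 and ANAPC10 at 0.73. UBE2S, its chain-extending enzyme, and the activator FZR1 lay at -0.38 and -0.25 and did not pass.

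Among regulators of CDKs outside the symbol patterns, 11 of 19 were measured, 7 rose (63.6%, against 25.1% of all genes) and none fell by limma at an adjusted p under 0.05, nor at an unadjusted p under 0.05 (list median 0.52). WEE1, the kinase that holds CDK1 inactive, lay at 7.76, 7.33, 7.96 and 8.15 in the RWDD4 clones, against 5.79, 6.14, 6.43 and 6.80 in the control clones, a rise of 1.51 (SE 0.22, adjusted p 0.000393, limma). The ubiquitin ligase scaffold CUL1, the mitotic kinase MASTL and the APC/C inhibitor FBXO5 rose by 1.25, 1.07 and 1.05. CABLES1 and CABLES2, which bind CDKs, lay at 0.32 and 0.26 and did not pass.

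The remaining CDC genes act in ubiquitination, protein folding, splicing and translation. CDC34, a ubiquitin-conjugating enzyme that works with SCF ligases, which degrade CDK inhibitors, lay at 8.26, 8.64, 8.55 and 7.64 in the RWDD4 clones, against 9.69, 9.37, 9.29 and 9.26 in the control clones. It fell by 1.13 (SE 0.20, adjusted p 0.00117, limma), or 2.18-fold, the largest fall of the 74 genes, and RWDD4 clone 6 was the lowest. CDC40, a splicing factor, lay at 7.42, 7.29, 7.61 and 7.23 in the RWDD4 clones, against 5.57, 6.27, 5.98 and 6.14 in the control clones, a rise of 1.40 (SE 0.15). CDC123, an assembly factor of translation initiation factor eIF2, lay at 8.80, 8.502, 8.82 and 8.70 in the RWDD4 clones, against 6.95, 7.77, 7.49 and 7.70 in the control clones, a rise of 1.23 (SE 0.17). CDC37, a chaperone partner of kinases that include CDK4, lay at -0.22 and did not pass. It passed after quantile normalization and after cyclic loess.

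In the transcription and splicing branch 10 of 15 measured members were higher (66.7%, against 25.1% of all genes), 1 was lower (6.67%, against 21.6%) and 4 did not pass (median 0.83). CCNH, the cyclin of the CDK-activating kinase and of TFIIH, lay at 8.55, 8.26, 8.77 and 8.52 in the RWDD4 clones, against 6.42, 6.94, 6.53 and 6.71 in the control clones. Its rise of 1.87 (SE 0.14), or 3.66-fold, had the lowest adjusted p of the 74 genes, 5.26e-05 (limma). Its kinase CDK7 lay at 7.19, 7.49, 7.76 and 7.39 in the RWDD4 clones, against 6.34, 7.05, 6.53 and 7.03 in the control clones, a rise of 0.72 (SE 0.18, adjusted p 0.00723, limma).

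CCNC, CDK8 and CDK19 belong to the kinase module of Mediator, a coactivator of RNA polymerase II. All 3 rose, against 25.1% of all genes, and subunits outside the symbol patterns were not looked at. CCNC lay at 5.74, 5.62, 6.08 and 6.04 in the RWDD4 clones, against 4.57, 4.76, 4.93 and 4.71 in the control clones, a rise of 1.13 (SE 0.13). CDK19 lay at 7.82, 7.76, 7.82 and 7.39 in the RWDD4 clones, against 6.36, 6.76, 6.20 and 6.502 in the control clones, a rise of 1.24 (SE 0.14). CDK8, its relative, rose by 0.99 (SE 0.18), and its groups did not overlap, at 8.28 to 8.62 in the RWDD4 clones, against 7.14 to 7.98 in the control clones.

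The elongation kinase P-TEFb pairs a T cyclin with CDK9. The T cyclins CCNT1 and CCNT2 rose and CDK9 fell. CCNT1 lay at 8.27, 8.33, 8.61 and 8.63 in the RWDD4 clones, against 6.60, 7.44, 6.80 and 7.12 in the control clones, a rise of 1.47 (SE 0.17, adjusted p 0.000129, limma). CCNT2 rose by 0.80 (SE 0.15). CDK9 lay at 9.45, 9.42, 9.41 and 9.36 in the RWDD4 clones, against 9.62, 9.75, 9.63 and 9.55 in the control clones. Its fall of 0.23 (SE 0.08, adjusted p 0.0406, limma) missed the test in 7 of 8 runs without 1 clone (-0.24 to -0.19), after median centring and with the span trend removed, where it lay at 0.04. The log2 gap of CCNT1 over CDK9 was 1.70 wider in the RWDD4 clones.

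CDK12 and CDK13, which phosphorylate the polymerase tail, shared a rise. CDK12 lay at 8.18, 7.79, 8.28 and 8.16 in the RWDD4 clones, against 6.42, 7.33, 6.81 and 7.24 in the control clones, a rise of 1.15 (SE 0.19, adjusted p 0.000858, limma), and CDK13 rose by 0.86 (SE 0.17). Their cyclin CCNK averaged 8.33 ± 0.12 in the RWDD4 clones and 8.27 ± 0.18 in the control clones (SD, n = 4 each), with an interval of the difference from -0.19 to 0.31. The splicing cyclin CCNL1 rose by 0.83 (SE 0.19), while its relative CCNL2 and their kinase CDK11A lay at -0.10 and 0.08, and CDK10 at -0.30, none past the test. CDK11A has a near-identical neighbour copy, CDK11B, and how their signals divide was not determined. CCNL2 and CDK10 passed as lower after quantile normalization, at -0.30 and -0.46, and CDK10 also without control clone 4, at -0.38.

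**Figure D4:**
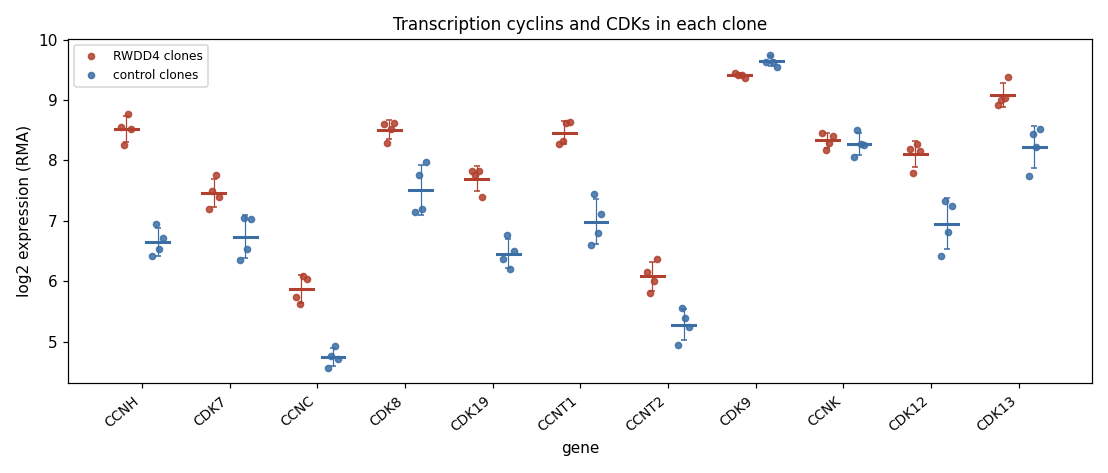
Log2 expression (vertical axis) of 11 transcription cyclins and CDKs in each clone; points are clones, bars the mean and lines the SD (n = 4 each), with RWDD4 clones in red left of control clones in blue. The groups are apart in all genes but CCNK, and the RWDD4 clones are the lower group in CDK9, at 9.36 to 9.45 against 9.55 to 9.75 in the control clones.

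The remaining members have mixed or less settled roles. CCNG1, a cyclin that is a target of p53 elsewhere and binds the phosphatase PP2A, lay at 7.83, 7.52, 8.26 and 8.11 in the RWDD4 clones, against 5.53, 5.99, 6.03 and 6.45 in the control clones, a rise of 1.93 (SE 0.20, adjusted p 8.17e-05, limma). Its relative CCNG2 lay at 5.83 to 6.15 in the RWDD4 clones, against 5.50 to 6.23 in the control clones. The atypical cyclin CCNJ lay at 7.17, 7.13, 7.42 and 7.60 in the RWDD4 clones, against 6.55, 6.73, 6.59 and 6.52 in the control clones, a rise of 0.73 (SE 0.12). CCNI, also atypical, lay at 9.60, 9.43, 9.76 and 9.82 in the RWDD4 clones, against 8.60, 8.89, 9.24 and 9.36 in the control clones, a rise of 0.63 (SE 0.16) that lay at -0.13 under that covariate. CCNP fell by 0.41 (SE 0.11), or by 0.13, not past the test, with the span trend removed, and CCNO, a cyclin of multiciliated cells, lay at -0.14.

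CDK14, a kinase that binds cyclin Y at the membrane, lay at 8.26, 7.77, 8.65 and 8.29 in the RWDD4 clones, against 6.77, 6.92, 7.36 and 7.59 in the control clones, a rise of 1.08 (SE 0.21, adjusted p 0.00206, limma). Cyclin Y itself (CCNY) lay at 0.27 with an interval from 0.03 to 0.51, and passed after median centring, after cyclic loess and without control clone 5. CDK17 lay at 7.13, 7.04, 6.90 and 7.43 in the RWDD4 clones, against 5.79, 6.59, 6.33 and 6.39 in the control clones, a rise of 0.85 (SE 0.17). CDK15, CDK16, CDK18 and CDK20 did not pass, at -0.27 to -0.06, though CDK15 passed with the span trend removed and CDK18 without control clone 3. The CDK2-binding protein genes parted: CDK2AP1 lay at 8.69, 8.79, 8.77 and 8.59 in the RWDD4 clones, against 7.85, 8.05, 7.99 and 8.31 in the control clones, a rise of 0.66 (SE 0.11). CDK2AP2 lay at 7.99, 8.18, 8.06 and 7.51 in the RWDD4 clones, against 8.81, 8.61, 8.42 and 8.41 in the control clones, a fall of 0.63 (SE 0.15) that missed the test at -0.35 with the span trend removed.

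CDK5, a kinase best known from neurons, lay at 10.10, 10.22, 10.10 and 9.99 in the RWDD4 clones, against 10.56, 10.55, 10.35 and 10.53 in the control clones. Its difference of -0.39 (SE 0.09, adjusted p 0.00507, limma) became -0.11, not past the test, with the span trend removed. CDK5RAP2, a centrosome protein named for binding a CDK5 activator, lay at 8.21, 8.16, 8.38 and 8.12 in the RWDD4 clones, against 6.86, 7.48, 7.20 and 7.497 in the control clones, a rise of 0.96 (SE 0.14, adjusted p 0.000423, limma). CDK5RAP1, which modifies transfer RNA, and CDK5RAP3 lay at -0.18 and -0.16 and did not pass. Both passed after quantile normalization, and CDK5RAP1 also with the span trend removed. CDK5RAP1 was the 1 member whose groups did not overlap without passing the test.

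The control clones varied more than the RWDD4 clones, and 1 of them stood apart. The SD was larger in the control clones for 58 of the 74 members and 33 of the 37 that rose, and for 9525 of all 14884 genes. The mean level over all 74 members was 7.93 to 8.05 in the RWDD4 clones, against 7.31 to 7.64 in the control clones. Over the 37 genes that rose it was 8.16 to 8.41 in the RWDD4 clones, against 6.78 to 7.39 in the control clones. These 37 were chosen as higher on the same arrays, so that gap follows from the choice. Control clone 2 had the lowest of the control values in 30 of the 37 genes and control clone 5 the highest in 18. Among the RWDD4 clones, clone 24 was lowest in 20 of the 37 and clone 5 highest in 18. These counts were not made over all genes, so whether they are particular to the members was not tested. Control clone 2 also had the lowest score on the main component of variation within groups, -58.36. Control clones 3, 4 and 5 scored -15.17, -24.44 and -12.21 on that component. Without control clone 2, 36 members rose and 8 fell, and the median over the 37 was 0.95.

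The difference also moved with the genomic span of a gene, from its first to its last annotated base. Across the 74 members Spearman's rho between difference and span was 0.33, and across 11916 protein-coding genes it was 0.398. In both cases the genes share the same 8 arrays. Among the members of shortest span, up to 16.5 kb, 5 of 25 rose and 6 fell, against 11.7% and 36.2% of protein-coding genes of that span. From 16.5 to 40.5 kb 15 of 24 rose and 2 fell (62.5% and 8.33%), against 32.5% and 21.6%. From 41.1 to 614 kb 17 of 25 rose and 1 fell (68% and 4%), against 46% and 10.5%. The 5 risers of shortest span were CCNA2, CCNB1, CCNE2, CDC20 and CDK2AP1, and the fall among the longest was that of CCND3. With each array's trend over span removed, 35 of the 37 rises and 5 of the 9 falls still passed, with 4 new rises and 5 new falls.

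**Figure D5:**
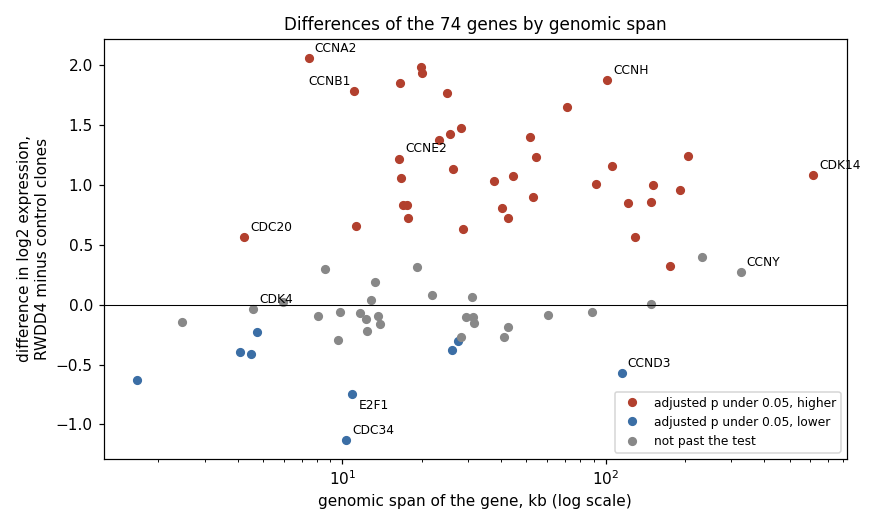
Difference in log2 expression, RWDD4 minus control clones (vertical axis), of the 74 genes against genomic span in kb (horizontal axis, log scale); each point is a gene, red for higher, blue for lower and grey for not past the test. CCNA2 and CCNB1 lie high at short span, and CCND3, at -0.57, is the 1 blue point above 41.1 kb.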

How the data were processed

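Expression was measured in 8 PC-3 clones, 1 Affymetrix array each, in the RWDD4 and control groups of 4 clones. The deposited values are log2 values per probe set; Partek and RMA are named in the submitters' processing notes, while their versions and settings, the genome build and the scan dates are not given there or in the labels. Of 53617 probe sets, 16098 had exactly 1 gene symbol and 1 gene ID in the platform annotation. The other 37519 did not and were left out. The 16098 stood for 14884 genes, all matched by gene ID in the RefSeq table (GRCh38.p14), which gave genomic spans. No 2 arrays were treated as 1 sample.

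RWDD4 minus control was fitted over all 14884 genes with lmFit and eBayes of limma 3.58.1 (R 4.3.3), two-sided, without covariates, and adjusted by Benjamini-Hochberg. No filter on dim genes was applied, and signal over background was not analysed here. The number of arrays limits the precision, and p-values measure the spread between clones. The members, roles, lists and alternatives were chosen with earlier results of these data known. Every member is named. Values in every clone are given for up to 3 members per role with the largest difference past the test, for their partners and for some further members chosen after their values were seen. Pathway genes are named up to 4 past the test and up to 2 not past it per list, and those in counts of 5 or fewer were named after their values were seen.

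A simulation of the RWDD4 minus control fit over 14884 genes altered 67 genes by 0.5, 67 by 1 and 66 by 2 log2 units. The fit found 44.8% of the first set, 88.1% of the second and 98.5% of the third. It made 168 calls, and 14 of them were wrong. In the measured data 6955 genes passed, far more than were altered in the simulation, so these rates need not hold there. How the rates change with the number of altered genes was not tested.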

Additional observations from a re-analysis of the deposited data

Results flagged for a closer look

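In 10 of the 148 groups of 4 clones, 6.76% against about 5% by chance, 1 clone lay far from the other 3 by Dixon's test. RWDD4 clone 24 was low in CDC25B (9.80, against 10.46 to 10.55 in the other RWDD4 clones), high in CDC14A (6.42, against 6.09 to 6.12) and low in CDC20B (3.78, against 3.94 to 3.97). RWDD4 clone 6 was low in CDK19 (7.39, against 7.76 to 7.82), and RWDD4 clone 5 was high in CCNP (5.72, against 5.53 to 5.55). Control clone 5 was high in CCNP (6.27, with the other control clones at 5.89 to 5.93) and in CDK16 (10.43, against 10.32 to 10.33), and low in CDC16 (7.21, against 7.36 to 7.38). Control clone 4 was low in CDK5 (10.35, against 10.53 to 10.56), and control clone 3 was high in CDK5RAP1 (9.45, against 9.17 to 9.21).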

How the results depend on the processing

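The fit was repeated with another variance model, other probe sets per gene, a filter on dim genes, 3 scalings, array weights, the span trend removed, the axis covariate and each clone left out. A covariate of the within-group part of the axis alone was chosen after seeing the data. The count of higher members stayed at 36 to 40 and that of lower members at 7 to 10 under all of these, except 16 lower after quantile normalization, and 0 higher and 0 lower with the axis covariate; the cause was not tested. With the within-group part alone, which has a mean of 0 in each group, 39 were higher and 10 lower. Without 1 clone in turn, 36 to 38 were higher and 7 to 9 lower, and the median difference was 0.30 to 0.46. The median was 0.36 as reported, 0.56 among the 71 members that passed the filter, where fewer genes were tested, and 0.0761 with the axis covariate. Under that covariate all 46 calls were lost, and over all 14884 genes 0 were higher and 1 was lower (limma). CCNI (0.63 to -0.13), CDK13 (0.86 to -0.0657), CDK7 (0.72 to -0.0688) and E2F1 (-0.74 to 0.11) changed sign under it. Each new value lay within its SE of 0. With the span trend removed CDK9 lay at 0.0449, while CDK4 (0.24) and CCNB3 (-0.29) passed with the opposite sign. Of the 46 calls, 35 rises and 4 falls held under every alternative but the axis covariate. No paired analysis was possible because the groups share 1 clone number, 5, which the labels do not tie to a common culture. Array values near the background are compressed, which limits CCNB3, CDC20B and CDK15, which were dimmer than the median probe set.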
